A study of Trichoderma reesei with 6 samples.

Results

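Copper, iron and zinc handling genes of the fungus *Trichoderma reesei* were followed on lactose, glucose and glycerol. The set holds 10 of the 9126 features on the array. They were selected on their difference, since each comes from the study's list of genes over 2-fold different on lactose from both glucose and glycerol. From that list they were picked by a role in copper, iron or zinc handling, as read from the annotation. That of the cytochrome c oxidase assembly protein COX17 names no metal. All 10 were found by identifier. The lactose values below therefore describe these genes and do not test them. For these genes only glucose against glycerol, which was not itself a selection rule, is given with a test. The rule used the same glucose and glycerol arrays, so this test is not fully independent of it. The names are predictions from the annotation, and no measurement of metal or of protein activity was used here.

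The strain was QM9414, a mutant from the early breeding of cellulase producers. Its mycelia were grown with 10 g/l of lactose, glucose or glycerol, and total RNA of each culture type was hybridised to 2 NimbleGen arrays in 1 colour. Growth lasted 28 h on lactose by the labels, against 24 h on the other carbon sources, while the study's methods give 1 time for all, so growth time and carbon source cannot be told apart. The labels describe duplicate flasks but also mixed mycelia, so the spread between the 2 arrays of a carbon source may be technical, and p-values measure that spread only. For the agar medium of its growth tests the study names salts of iron, manganese, zinc and cobalt and no copper salt. For the array cultures the labels point to an earlier description, which was not used here, so the metals they received are not stated here.

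Metals reach a fungal cell through dedicated proteins. In baker's yeast, *Saccharomyces cerevisiae*, reductases of the plasma membrane first reduce ferric iron and oxidised copper outside the cell. Reduced copper then enters through transporters of the Ctr family. Reduced iron is taken up by a pair of proteins, a multicopper oxidase that reoxidises it and a permease that carries it inward, so iron uptake by this route needs copper. Zinc enters through the ZIP family, whose name combines zinc and iron transporters. Inside the cell, chaperones such as COX17 pass copper on to cytochrome c oxidase of the respiratory chain. In the same yeast, genes for copper uptake and for surface reductases are switched on when copper is scarce.

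Signals are log2 values per array, as deposited, and a difference of 1 is a 2-fold change. Across all features the lowest was 2.70 and the highest 15.90, with array medians of 10.80 to 10.85. No detection call comes with the values. A mean under 4.66, the lowest 10% of all values, is therefore named as the low end of the scale, where a fold may be a poor measure. Fewer cells of a type and less RNA per cell cannot be told apart in RNA of whole mycelia.

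Of the 10 genes, 8 were lower on lactose than on both other carbon sources and 2 were higher. Over all features, 7.28% were lower and 10.2% higher by over 2-fold and an adjusted p under 0.05 in both comparisons, 17.5% in all. This rule chose the genes, and nothing is read from the comparison. For all 10 genes both lactose arrays lay outside the range of the 4 other arrays, as they did for 60.9% of all features. The median difference of the 10 genes was −2.74 against glucose and −2.78 against glycerol on the log2 scale, with medians over all features of −0.06 and −0.05. The gene nearest to the 2-fold limit was the multicopper oxidase TRIRE2_122948.

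**Figure D1:**
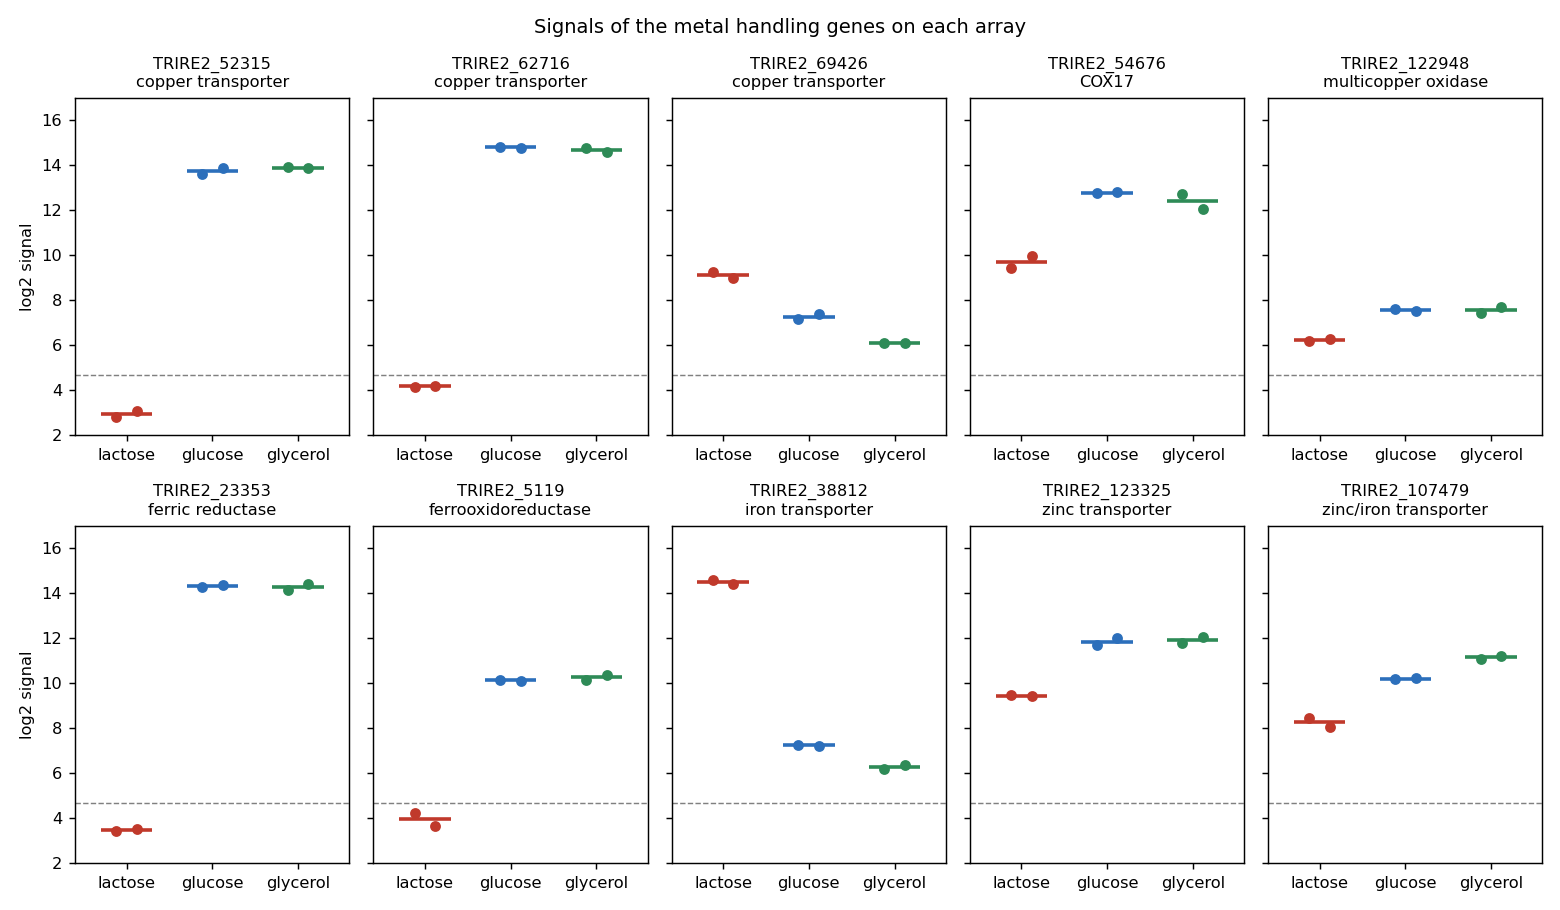
Log2 signal of the 10 metal genes on each array, with lactose, glucose and glycerol from left to right in each panel. Points are single arrays (2 per carbon source), horizontal bars are their means, and the dashed line marks the low end of the scale at 4.66. TRIRE2_52315, TRIRE2_62716, TRIRE2_23353 and TRIRE2_5119 fell below that line on lactose, whereas TRIRE2_69426 and TRIRE2_38812 were highest there.

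Of the 10 genes, 3 are annotated as copper transporters, and they did not go the same way. TRIRE2_52315 gave 2.83 and 3.09 on lactose, 13.60 and 13.88 on glucose, and 13.91 and 13.89 on glycerol. Its signal was 1757-fold lower than on glucose, with 1966-fold against glycerol. With the lactose mean set to 4.66 the folds were still 540.2 and 604.6. Both lactose arrays were at the low end of the scale, and the 4 other arrays lay close together.

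TRIRE2_62716, annotated as a copper transporter family protein, gave 4.14 and 4.20 on lactose, 14.82 and 14.79 on glucose, and 14.77 and 14.58 on glycerol. It was 1587-fold lower than on glucose, with 1452-fold against glycerol, or 1131-fold and 1035-fold with the same limit. Both copper transporters thus had a strong signal on glucose and on glycerol and a signal at the low end on lactose.

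TRIRE2_69426, also annotated as a copper transporter, ran the other way. It gave 9.26 and 9.01 on lactose, 7.17 and 7.39 on glucose, and 6.11 and 6.09 on glycerol. The lactose signal was 3.62-fold higher than on glucose and 8.17-fold higher than on glycerol. No 2 carbon sources overlapped for this gene, and the order was lactose, glucose, glycerol from high to low.

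The study's list holds 2 further copper transporters, chosen on these same arrays. TRIRE2_108749 was 13.7-fold lower on lactose than on glucose, and 13.4-fold lower when set against glycerol. TRIRE2_71029 was 8.01-fold and 10.0-fold lower. Their lactose means, 10.51 and 10.92, were not at the low end, unlike those of TRIRE2_52315 and TRIRE2_62716. Of the 5 listed copper transporters, 4 were lower and 1 was higher.

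Among proteins that use or deliver copper, the mitochondrial copper chaperone COX17 (TRIRE2_54676) gave 9.46 and 9.98 on lactose, 12.77 and 12.81 on glucose, and 12.72 and 12.07 on glycerol. It was 8.42-fold lower on lactose than on glucose, and 6.38-fold lower when set against glycerol. Its glycerol arrays differed more from each other than any other pair of replicate arrays among the 10 genes (SD 0.46, n = 2), but the lower of them still stood above both lactose arrays.

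TRIRE2_122948, a multicopper oxidase, an enzyme class that holds several copper atoms and reduces oxygen to water, gave 6.20 and 6.27 on lactose, 7.61 and 7.52 on glucose, and 7.45 and 7.68 on glycerol. It was 2.52-fold lower than on either. This was the smallest change among the 10 genes, with replicate arrays on each carbon source within 0.16 of each other in SD.

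Other copper proteins of the study's list split evenly. The cytochrome c oxidase assembly proteins TRIRE2_4668 and TRIRE2_80932, the second a CtaG/Cox11 homologue that serves the insertion of copper into the oxidase, were lower on lactose, by 3.18-fold and 3.20-fold against glucose and by 2.89-fold and 2.01-fold against glycerol. Another pair of copper enzymes was higher. TRIRE2_76034, a copper radical oxidase, of a class that produces hydrogen peroxide, was 4.18-fold and 3.14-fold higher on lactose than on glucose and glycerol. TRIRE2_122963, a copper amine oxidase, was 3.45-fold and 2.03-fold higher.

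Ferric reductases reduce ferric iron, and in yeast also copper, before uptake. TRIRE2_23353 gave 3.43 and 3.49 on lactose, 14.29 and 14.34 on glucose, and 14.14 and 14.40 on glycerol. It was 1854-fold lower on lactose than on glucose, and 1795-fold lower when set against glycerol, or 807.6-fold and 781.8-fold with the lactose mean set to 4.66. Like TRIRE2_52315 and TRIRE2_62716 it had its lactose signal at the low end, so the sizes of these 3 falls have no order among them.

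All 4 further ferric reductases of the list were lower on lactose as well, with folds between 2.66 and 23.2. TRIRE2_111750 was 23.2-fold lower than on glucose, with 23.1-fold against glycerol. TRIRE2_81096 followed with 12.4-fold and 13.0-fold, and TRIRE2_22845 was lower by differences of −2.54 and −2.58 on the log2 scale. TRIRE2_54144 was 8.89-fold lower than on glucose but 2.66-fold lower than on glycerol. None of the 4 had a mean at the low end on lactose.

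Iron uptake proper went in both directions. TRIRE2_5119, annotated as a ferrooxidoreductase, the oxidase partner of the yeast uptake pair, gave 4.23 and 3.64 on lactose, 10.13 and 10.10 on glucose, and 10.14 and 10.38 on glycerol. It was 72.4-fold lower on lactose than on glucose, and 79.9-fold lower when set against glycerol, or 43.9-fold and 48.5-fold with the lactose mean at 4.66. Its lactose arrays differed from each other with an SD of 0.42, at signals under the low end.

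TRIRE2_38812, an iron transporter, was the gene of the 10 with the largest signal gain on lactose. It gave 14.60 and 14.41 on lactose, 7.25 and 7.21 on glucose, and 6.18 and 6.36 on glycerol. This was 155-fold higher than on glucose and 302-fold higher than on glycerol. Signals on glucose and glycerol were above the low end, so these folds rest on no value below 4.66.

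The list adds an iron transporter that was lower and another that was higher. TRIRE2_80639 gave 3.11 and 3.10 on lactose, 8.37 and 8.91 on glucose, and 9.50 and 8.95 on glycerol, and was 46.5-fold and 69.7-fold lower, or 15.8-fold and 23.7-fold with the lactose mean at 4.66. TRIRE2_54962, another iron transporter, was 3.37-fold higher on lactose than on glucose and 4.13-fold higher than on glycerol. The second ferrooxidoreductase, TRIRE2_102820, was 2.31-fold and 3.07-fold higher. Of the 5 listed genes for iron uptake, 3 were higher and 2 were lower.

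Both zinc transport genes were lower on lactose. TRIRE2_123325, a zinc transporter, gave 9.47 and 9.41 on lactose, 11.70 and 11.99 on glucose, and 11.77 and 12.05 on glycerol, 5.29-fold and 5.54-fold lower. TRIRE2_107479, a transporter of zinc or iron by its annotation, gave 8.47 and 8.03 on lactose, 10.16 and 10.21 on glucose, and 11.07 and 11.21 on glycerol. It was 3.84-fold lower than on glucose, with 7.42-fold against glycerol. For the first gene the glucose and glycerol arrays overlapped, whereas the second stepped up over lactose, glucose and glycerol without overlap.

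Among 7 listed genes of heme and iron-sulfur metabolism, 6 were lower on lactose, by between 2.01-fold and 5.52-fold. They were cytochrome c (TRIRE2_51130), the electron carrier to cytochrome c oxidase, its putative heme lyase (TRIRE2_77758), which attaches the heme, cytochrome c peroxidase (TRIRE2_49205), the iron-sulfur assembly protein Isa1 (TRIRE2_67217), a mitochondrial matrix iron-sulfur protein (TRIRE2_60406) and a sideroflexin (TRIRE2_22277), of a family of mitochondrial membrane carriers. The exception was a coproporphyrinogen III oxidase (TRIRE2_123234), an enzyme of heme synthesis. It gave 5.46 and 5.03 on lactose, 2.95 and 2.98 on glucose, and 2.79 and 2.80 on glycerol. Its 4.85-fold and 5.46-fold rise was 1.5-fold when the signals at the low end were set to 4.66.

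Of 3 listed genes for cation efflux or pumping, 2 were higher on lactose. The cation transporting ATPase TRIRE2_81536 gave 7.80 and 7.78 on lactose, 3.08 and 3.09 on glucose, and 3.01 and 3.03 on glycerol, 26.1-fold and 27.3-fold higher, or 8.77-fold with the low end as limit. The ATPase TRIRE2_81430 was 39.8-fold higher than on glucose and 6.04-fold higher than on glycerol. The putative cation efflux protein TRIRE2_80672 was 2.94-fold and 2.91-fold lower. The ion that these proteins carry is not given by their annotation. In all, 16 of the 23 further genes were lower on lactose and 7 were higher. The study's selection fixed that each of them differed and left only the direction open. Over all features 7.28% were lower and 10.2% higher by over 2-fold and an adjusted p under 0.05 in both comparisons.

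**Figure D2:**
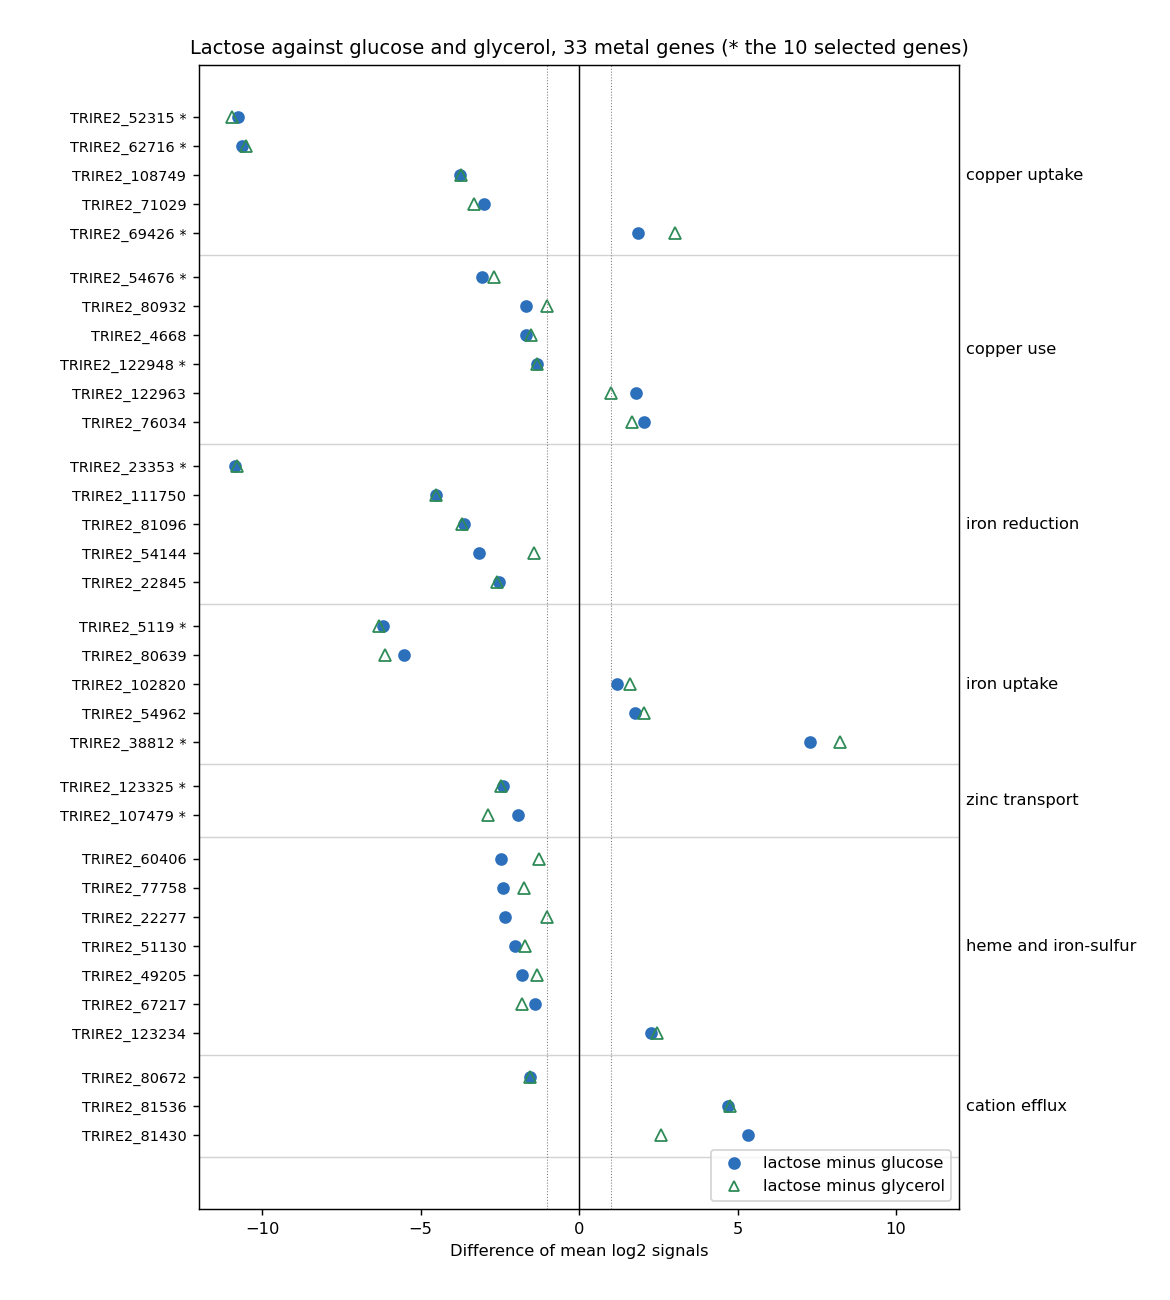
Differences of mean log2 signal for 33 metal genes grouped by role, lactose minus glucose as filled circles and lactose minus glycerol as open triangles, with n = 2 arrays per carbon source. Dotted lines mark a 2-fold difference and stars mark the 10 selected genes. All 33 come from the study's list of genes changed on lactose, so unchanged genes could not appear. The listed ferric reductases and zinc transport genes all lie left of 0, while every other group holds genes on both sides.

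Glucose against glycerol was not itself used to choose the genes, and most of them were not called there, as was so for most features. The choice asked lactose to lie over 2-fold from both in the same direction. Whether this selection changes the share called was not tested, so the shares below are a description. At over 2-fold and an adjusted p under 0.05 (limma, adjusted over all features), 1 of the 10 genes was called, against 17.6% of all features. By the adjusted p alone 3 of the 10 passed, against 42.7% of all features. Both glucose arrays lay outside the range of both glycerol arrays for 7 of the 10 genes and for 69.1% of all features. The median absolute difference was 0.15 on the log2 scale for the 10 genes and 0.32 for all features.

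The gene called was the copper transporter TRIRE2_69426, which was 2.26-fold higher on glucose than on glycerol (log2 difference 1.18, SE 0.14, 95% interval 0.87 to 1.49, adjusted p = 0.000165). The iron transporter TRIRE2_38812 was 1.95-fold higher on glucose (0.96, 95% interval 0.67 to 1.25, adjusted p = 0.000342), just short of the 2-fold limit. The zinc/iron transporter TRIRE2_107479 was 1.93-fold lower on glucose than on glycerol (−0.95, 95% interval −1.31 to −0.59, adjusted p = 0.00141). Both genes that were higher on lactose were thus higher on glucose than on glycerol too by the adjusted p, and 1 of the 8 that were lower on lactose passed it.

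The other 7 genes did not pass by the adjusted p, with values between 0.216 and 0.986. For the ferric reductase TRIRE2_23353 the difference was 0.05 (95% interval −0.24 to 0.34). For the copper transporters TRIRE2_52315 and TRIRE2_62716 it was −0.16 (−0.49 to 0.17) and 0.13 (−0.14 to 0.40). These intervals lie inside a 1.5-fold difference, whereas the lactose folds of these genes were at least 540.2 with the lactose mean set to 4.66. The widest interval belonged to COX17, TRIRE2_54676, with 0.40 (−0.14 to 0.94).

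**Figure D3:**
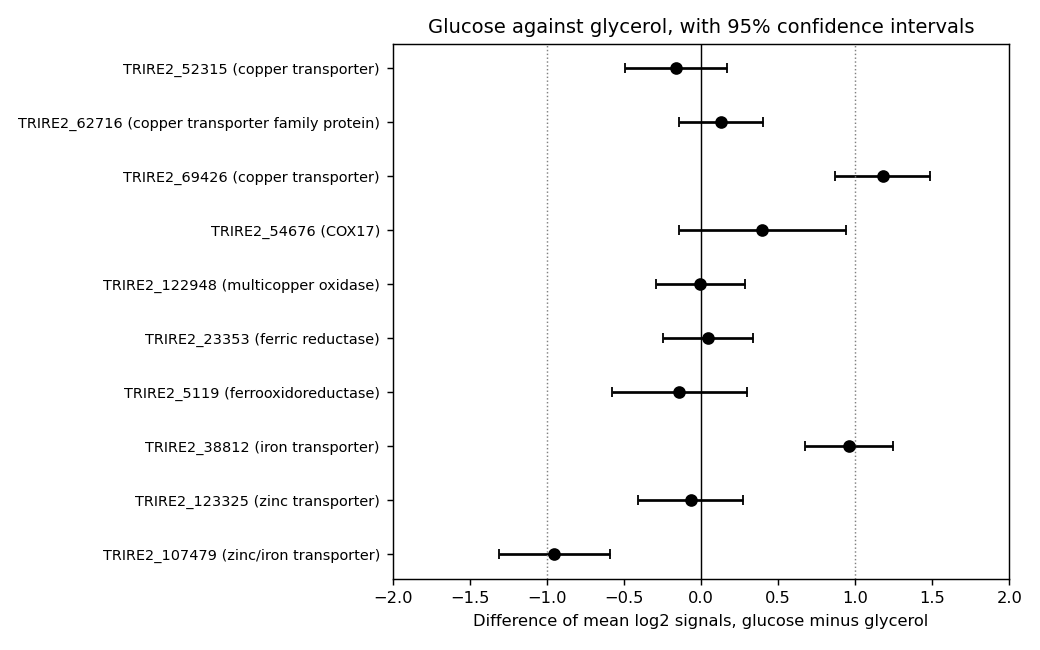
Log2 difference of glucose minus glycerol for the 10 genes, with 95% confidence intervals from the fit over all features (n = 2 arrays per carbon source). Dotted lines mark a 2-fold difference. TRIRE2_69426, TRIRE2_38812 and TRIRE2_107479 have intervals that leave out 0, and those of the other 7 genes include it.

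Of the 23 further metal genes, 4 were called between glucose and glycerol (17.4%, against 17.6% of all features) and 10 passed by the adjusted p alone (43.5%, against 42.7%), shares near those of all features. The ferric reductase TRIRE2_54144 was 3.35-fold higher on glucose (log2 difference 1.74, adjusted p = 3.04e-05), the sideroflexin TRIRE2_22277 2.51-fold higher and the iron-sulfur protein TRIRE2_60406 2.29-fold higher. The ATPase TRIRE2_81430 was 6.58-fold lower on glucose than on glycerol (−2.72, adjusted p = 2.39e-06). The other 3 further ferric reductases differed by at most 0.06 on the log2 scale in size, and none of them passed.

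Gene order was read from the RefSeq annotation of the reference strain QM6a (assembly v2.0), in which all 33 listed genes were found. Strands are not given there. In 3 cases a pair of listed genes lay side by side. The ferric reductase TRIRE2_23353 and the copper transporter TRIRE2_52315 lie side by side with 583 bases between their gene models, and both were at the low end on lactose. The ferrooxidoreductase TRIRE2_5119 and the iron transporter TRIRE2_80639 are neighbours with 947 bases between them, and both were lower, by between 46.5-fold and 79.9-fold as measured and between 15.8-fold and 48.5-fold with their lactose means, both at the low end, set to 4.66. The ferrooxidoreductase TRIRE2_102820 and the iron transporter TRIRE2_54962 are neighbours with 2420 bases between them, and both were higher. An oxidase and a transporter gene thus formed a pair at 2 places of the genome, and the pairs differed from each other in direction on lactose.

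The 10 genes had 18 direct neighbours that are not among the 10. These neighbours were found by position and not by their own signal, but beside genes chosen on lactose from these same arrays. Their lactose calls and p-values are therefore a description. TRIRE2_80639, counted among the lower, is also a further metal gene that the study chose on lactose. By over 2-fold and an adjusted p under 0.05 in both comparisons, 5 were higher, 5 were lower and 8 were not called, which makes 55.6% called against 17.5% of all features. Next to all genes called on lactose, 26.6% of direct neighbours were called. In that share a gene counts once for each called gene beside it, and the 10 genes are kept. The 18 are counted once each and leave out the 10, so both shares are not counted alike.

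The copper transporter TRIRE2_62716 had at its side TRIRE2_107641, a protein annotated as unique. It gave 3.85 and 4.09 on lactose, 10.62 and 10.78 on glucose, and 10.60 and 9.90 on glycerol. Its lactose signal, at the low end, was 106-fold below glucose and 77.6-fold below glycerol (limma, adjusted p = 4.06e-08 and 9.93e-08), or 65.8-fold and 48.1-fold with the lactose mean set to 4.66, so that this pair fell together like TRIRE2_23353 and TRIRE2_52315.

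The copper transporter TRIRE2_69426 stood between neighbours that were both higher. One, TRIRE2_72526, an alpha-glucuronidase of family GH67, which cleaves glucuronic acid from xylan fragments, gave 11.26 and 10.93 on lactose, 3.10 and 2.88 on glucose, and 3.27 and 3.37 on glycerol. It was 275-fold and 219-fold higher (limma, adjusted p = 2.52e-09 and 4.34e-09), or 86.5-fold against each with the signals at the low end set to 4.66. Its gene model overlaps that of TRIRE2_69426 by 10 bases, so signal could be shared between the models if probes lie there, and probe positions were not used here. The other, TRIRE2_69228, an aminotransferase of biotin synthesis (BioA) by its annotation, was 3.16-fold and 2.71-fold higher.

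Other called neighbours changed less. TRIRE2_102454, of unknown function, next to COX17, was 4.16-fold lower than on glucose, with 3.62-fold against glycerol. TRIRE2_50268, a Sir2 family histone deacetylase next to the multicopper oxidase TRIRE2_122948, was 2.39-fold and 2.68-fold lower. TRIRE2_62130, of unknown function, next to TRIRE2_107479, was 2.67-fold and 3.41-fold lower. In each of these cases the neighbour went the same way as the metal gene. Next to the iron transporter TRIRE2_38812, the Zn2Cys6 regulator TRIRE2_80139 was 3.30-fold and 2.88-fold higher, also in the same direction.

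The remaining pair of called neighbours went against the metal gene. The amidase TRIRE2_80645, next to the ferrooxidoreductase TRIRE2_5119, was 3.85-fold higher than on glucose and 4.84-fold higher than on glycerol. The permease TRIRE2_110430, next to the zinc transporter TRIRE2_123325, was 3.36-fold and 2.23-fold higher. The genes that flank the pair of TRIRE2_23353 and TRIRE2_52315, TRIRE2_82049 and TRIRE2_69663, were lower than on glucose by 3.13-fold and 2.26-fold (limma, adjusted p = 4.43e-05 and 4.79e-05), in the direction of the pair. They were not called because against glycerol they were lower by 1.44-fold and 1.45-fold, under the 2-fold limit.

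**Figure D4:**
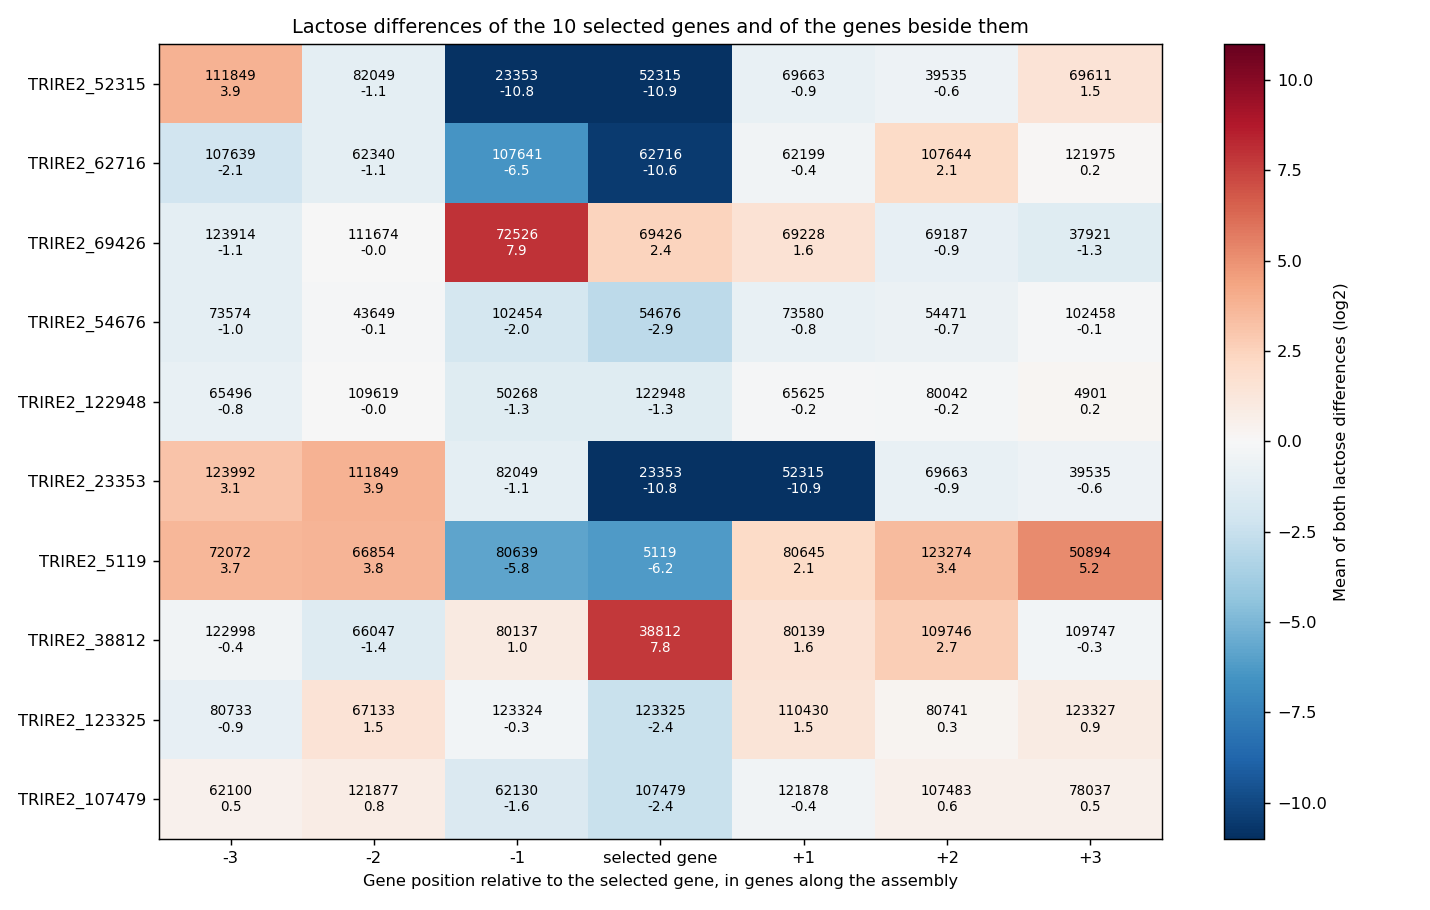
Mean of the lactose minus glucose and lactose minus glycerol log2 differences for each of the 10 genes (middle column) and for the 3 genes on either side along the assembly, with blue for lower and red for higher on lactose. Cells give the gene number and the difference, and the rows of TRIRE2_52315 and TRIRE2_23353 show the same region. TRIRE2_72526 beside TRIRE2_69426 and TRIRE2_107641 beside TRIRE2_62716 have the deepest colours among the neighbours that are not themselves metal genes.

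Profiles over the 6 arrays were compared by the Euclidean distance between log2 profiles, each centred on its own mean but not scaled. A distance of 0 means the same changes between arrays, so the size of a change counts as well as its shape. Arrays share the lactose samples that chose the genes, so these distances are a description. The genes nearest to TRIRE2_52315 were TRIRE2_23353 (distance 0.36) and TRIRE2_62716 (0.53), and TRIRE2_62716 and TRIRE2_23353 were 0.45 apart. For each of the 3 the next in line was TRIRE2_73623, a flavoprotein monooxygenase with a lactose mean of 3.62. It was 1986-fold lower on lactose than on glucose, and 1235-fold lower when set against glycerol, or 966.3-fold and 600.8-fold with that mean set to 4.66. The ferric reductase and both copper transporters were thus each other's closest profiles among all features, over signals that were at the low end on lactose. By the smaller of both folds as measured they also ranked 1 to 3 among all falls, so few other features could lie near them. With lactose means set to 4.66 these ranks do not hold. The smaller fold was then 600.8 for TRIRE2_73623 and 540.2 for TRIRE2_52315.

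Nearest to the iron transporter TRIRE2_38812 was TRIRE2_70608 (0.41), of unknown function but with HHE domains, a domain type known for binding iron, at 186-fold and 315-fold higher on lactose, or 178-fold against each with its glucose and glycerol means, at the low end, set to 4.66. TRIRE2_112239 (0.45) and TRIRE2_103009 (0.95), both unknown, came next. Nearest to the ferrooxidoreductase TRIRE2_5119 were a cytochrome P450, a class of heme enzymes (TRIRE2_4517, 0.58), a multidrug transporter (TRIRE2_43701, 0.61) and a chloroperoxidase (TRIRE2_123084, 0.95).

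The rising copper transporter TRIRE2_69426 was closest to a mannose-6-phosphate isomerase (TRIRE2_58701, 0.28), a monocarboxylate transporter (TRIRE2_69282, 0.33) and TRIRE2_120837 (0.37), of unknown function. COX17 was closest to the cysteine synthase TRIRE2_81089 (0.58), then to TRIRE2_69528 (0.59) and TRIRE2_105290 (0.65), both unknown. The multicopper oxidase TRIRE2_122948 had near matches in the translation elongation factor eEF-3 (TRIRE2_122909, 0.14), the protein kinase chaperone CDC37 (TRIRE2_21181, 0.15) and the unknown TRIRE2_102461 (0.16).

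Of the zinc genes, TRIRE2_123325 was closest to TRIRE2_42571 (0.19), TRIRE2_61995 (0.25) and TRIRE2_111307 (0.28), all unknown. TRIRE2_107479 was closest to the vacuolar sorting protein VPS9 (TRIRE2_36373, 0.33), the cytochrome P450 TRIRE2_64869 (0.34) and the unknown TRIRE2_120359 (0.44). The zinc genes were not among each other's 3 closest profiles, and neither had another metal gene there.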

How the data were processed

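Signals were deposited by the authors as log2 values for every feature on every array, made from the probes with RMA (version not stated). A second deposited table gives log2 means by carbon source, and these differ from means of the array values by at most 5e-05. That deposited table also holds the authors' folds of lactose against glucose and glycerol, p-values and an F score, none of which was used. No array column was left unused (0). Beyond the name RMA, the sources do not describe how background was corrected and how arrays were scaled to each other.

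The log2 values of all 9126 features entered limma 3.58.1 in R 4.3.3 unchanged, with the 3 carbon sources in 1 fit, default eBayes (prior SD 0.135, prior df 5.10, residual df 3) and Benjamini-Hochberg adjustment over all features. Calls needed over 2-fold and an adjusted p under 0.05. The steps were tested on simulated data. With 2 arrays per carbon source, the number of arrays limits the precision. Groups came from the sample titles. The fit had no replicate block.

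The 10 genes and all lists were chosen with earlier results of these data known. Named genes are the 10, the 23 further genes of the study's list, the 3 nearest profiles of each of the 10, and the direct neighbours. The 23 were picked by reading their annotations for a role in copper, iron, heme, iron-sulfur or cation transport, which some do not name. Annotations are those of the study. Of the features, 9094 have a RefSeq locus tag, and gene order was read over 62 sequences. A planned comparison with sequence relatives of the 10 genes was not run, since no protein sequences were used here. Python 3.11.15 with pandas 2.3.3, numpy 2.4.6 and matplotlib 3.10.9 made counts and figures.

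Alternatives were leaving out each array, a replicate block, quantile normalization, centring on array medians, trend and robust eBayes, other fold and p thresholds, a fit of glucose and glycerol alone and leaving out the dimmest 25% of features. Those for the neighbours and the low end of the scale were chosen after seeing the data.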

Additional observations from a re-analysis of the deposited data

How the results depend on the processing

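No alternative turned the direction of a called difference. For the 10 genes, the counts of 2 higher and 8 lower on lactose, 7 and 16 for the further genes and 10 called neighbours stayed within 1.5 times under every alternative other than the fold limit and the filter on dim features. With a limit of 4-fold, 1 of the 10 genes was higher on lactose, 3 further genes were higher, 6 further genes were lower and 3 neighbours were called. Without the dimmest 25% of features, which leaves out TRIRE2_69426, TRIRE2_122948, TRIRE2_5119, 5 further genes and 4 neighbours, 1 of the 10 genes and 3 further genes were higher and 6 neighbours were called. The call of 1 gene between glucose and glycerol is the least stable: it was 0 at 4-fold and without the dim features, which removed TRIRE2_69426, and 3 at 1.5-fold. Leaving out each array in turn gave 1 to 2 genes there. TRIRE2_107479 was added without glycerol replicate 1 (−1.02, adjusted p = 0.00696) and TRIRE2_38812 without glycerol replicate 2 (1.05, adjusted p = 0.00136), both close to the 2-fold limit. The same left 2 higher and 8 lower of the 10 genes on lactose, 5 to 7 and 15 to 16 of the further genes, and 9 to 11 neighbours. With the replicate number as a block, 1 of the 10 genes was called between glucose and glycerol, and the block changed no other count. Deviations of same-numbered arrays had r = −0.01 (lactose with glucose), −0.14 (lactose with glycerol) and 0.07 (glucose with glycerol), so the numbers are not taken as pairs. Relatives by BLASTP, at any E limit, were not run. With no detection calls and 2 arrays per carbon source, folds of genes with a signal at the low end, among them 5 of the 33 listed genes on lactose, are uncertain in size.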

Other observations

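The genes 2 and 3 places away from the 10 metal genes were not part of the neighbour counts, and were looked at after the direct neighbours had been seen. Around the ferrooxidoreductase TRIRE2_5119 and its neighbour TRIRE2_80639, the next genes outward were all higher on lactose. On one side TRIRE2_66854, a monocarboxylate transporter, was 7.64-fold higher than on glucose and 23.9-fold higher than on glycerol (23.3-fold with the glycerol mean, at the low end, set to 4.66), and TRIRE2_72072, a CE1 family esterase, was 11.1-fold and 14.9-fold higher. On the other, past the amidase TRIRE2_80645, TRIRE2_123274, an aldehyde dehydrogenase, was 5.46-fold and 21.7-fold higher, and TRIRE2_50894, a permease of the major facilitator superfamily, was 25.1-fold and 55.0-fold higher (limma, adjusted p = 5.57e-08 and 2.89e-08). The study's qPCR, which names a longer cultivation, gave TRIRE2_50894 a far smaller rise on lactose over glucose.

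Near the pair of TRIRE2_23353 and TRIRE2_52315, the next gene but one from the reductase was TRIRE2_111849, a GH30 glucuronoyl-xylanase, at 16.9-fold and 12.4-fold higher on lactose than on glucose and glycerol, the first of which was 14.3-fold with the glucose mean, at the low end, set to 4.66. Beyond it lay TRIRE2_123992, swollenin, a protein that loosens cellulose, at 16.0-fold and 4.71-fold higher. Near the iron transporter TRIRE2_38812, the cytochrome P450 TRIRE2_109746 was 5.83-fold and 7.36-fold higher, and the Zn2Cys6 regulator TRIRE2_66047, on the other side, was 3.33-fold and 2.23-fold lower.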
